A study of Mus musculus with 12 samples.

Results

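The apolipoprotein L genes followed here are Apol6, Apol8, Apol9a, Apol9b and Apol10b, 5 genes of the 56093 entries in the count table and of the 14 entries whose symbol is Apol plus a digit. In B16 mouse melanoma cells given IFNγ, 4 of them had 589 to 6671 counts over 3 libraries, against at most 33 without it, and with IFNγ all 4 were higher in Sdc1 knockdown than in control cells, as were 18.9% of all genes tested. In bulk RNA, fewer expressing cells and less RNA per cell cannot be told apart. Apol8 stayed at 15 counts or fewer in every group. The 5 were chosen by name, with earlier results of these data in view. Ordered by counts summed over all 12 libraries they are the top 5 of the 14, with Apol8 just inside at 41 counts and Apol7a and Apol7d just outside at 11 each. For the 4 other than Apol8 those sums come almost wholly from the libraries with IFNγ, so the response to IFNγ is a description and its test supports nothing here. Differences between knockdown and control cells were tested in a model of the whole table, but they too were known when the genes were chosen and are not independent evidence.

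Apolipoprotein L proteins are mostly intracellular proteins that bind lipids and membranes. The family is best known from human APOL1, a secreted serum protein that kills trypanosomes, and several members in human and mouse are induced by interferons. IFNγ signals through its receptor and the kinases JAK1 and JAK2 to gamma-activated sites in promoters, and it induces IRF1, which binds interferon-stimulated response elements. The same elements are also used downstream of type I interferon. Mouse Apol9a and Apol9b are a pair of close copies that are known as interferon-stimulated antiviral genes and bind phosphatidylethanolamine. Human APOL6 has been described as a protein that promotes cell death; no role is given here for mouse Apol8 and Apol10b.

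The 12 RNA-seq libraries formed 4 groups of 3. They were Sdc1 knockdown cells with IFNγ, control cells with IFNγ, Sdc1 knockdown cells without it and control cells without it. Knockdown cells were transfected with a short hairpin RNA against Sdc1 (shSdc1), which encodes the heparan sulfate proteoglycan syndecan-1, and control cells with one against the red fluorescent protein RFP (shRFP), so every group carried a hairpin. IFNγ was given at 10 ng/ml for 24 h. The labels give neither the number of hairpins or clones nor the promoter that drove them. They do not say if replicates were cultured apart, and the spread behind every p-value may therefore be technical. The comparisons share groups with each other: each group enters 1 comparison of knockdown and 1 of IFNγ.

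Libraries held 14337771 to 21548940 counts. Levels are given in CPM, counts brought to a common depth with the trimmed mean of M values, and 3 counts over a group correspond to 0.0563 to 0.0661 CPM. Sdc1 stood at 25.1 to 27.0 CPM in shSdc1 with IFNγ against 79.6 to 102.7 CPM in shRFP with IFNγ, and at 22.1 to 25.7 CPM in shSdc1 against 73.9 to 76.4 CPM in shRFP. All 7 melanocyte markers listed were expressed. In the knockdown 7 of 7 were lower without IFNγ and 6 of 7 with it (median log2 fold change -0.45 and -0.43). Of all 14089 genes tested, 4024 differed between knockdown and control cells without IFNγ, 1969 of them higher. With IFNγ 5121 differed, 2668 of them higher. A single library stood apart: the symbol-less entry ENSMUSG00000119584 took 4.79% of shSdc1 replicate 3 and 0.0842 to 0.195% elsewhere. Of 11 leukocyte markers Cd3e, Itgax and Adgre1 were at 0 in every library and only Lyz2 and Cd68 passed the low-count filter. The summed level of the leukocyte list was 15.8 to 16.6 CPM in shSdc1 with IFNγ and 5.73 to 8.38 CPM in shRFP with IFNγ, and 8.51 to 8.92 CPM in shSdc1 and 2.49 to 3.38 CPM in shRFP. Most of each sum was Cd68, with means of 14.4 and 6.32 CPM in shSdc1 and shRFP with IFNγ. Without it the Cd68 means were 7.25 and 2.45 CPM. The sum was higher in knockdown than in control cells with and without IFNγ, as Apol9a and Apol9b were. Its part in the levels of the Apol genes was not tested. Summed fibroblast markers lay between 1.80 and 4.09 CPM and endothelial markers at or below 0.429 CPM in all libraries.

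Promoter sequences are shown because 4 genes moved together and because the cores of the elements named above can be looked for in them. They were taken from RefSeq on GRCm38.p6 by gene symbol, while the submitters' processing notes name GRCm39, so no position was converted. A window ran from 250 bases before the annotated start to the first 20 bases from it, on the strand of the gene. A pair of patterns was searched on both strands: GAAA, any 2 bases and again GAAA for the core of an interferon-stimulated response element, and TTCNNNGAA for a gamma-activated site. Matches may overlap, and they are in capitals. The first pattern was present in 1005 of 27025 genes with a promoter (3.72%) and the second in 2363 (8.74%). The windows of Apol9a (chr15:77411061-77411330, minus strand), Apol9b (chr15:77728822-77729091, plus strand), Apol10b (chr15:77596106-77596375, minus strand) and Apol8 (chr15:77756991-77757260, minus strand) read, 5′ to 3′:
Apol9a: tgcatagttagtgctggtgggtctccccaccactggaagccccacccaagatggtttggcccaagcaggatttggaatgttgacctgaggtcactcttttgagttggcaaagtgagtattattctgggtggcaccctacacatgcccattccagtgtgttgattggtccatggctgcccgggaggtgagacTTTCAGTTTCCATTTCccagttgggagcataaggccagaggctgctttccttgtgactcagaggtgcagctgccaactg
Apol9b: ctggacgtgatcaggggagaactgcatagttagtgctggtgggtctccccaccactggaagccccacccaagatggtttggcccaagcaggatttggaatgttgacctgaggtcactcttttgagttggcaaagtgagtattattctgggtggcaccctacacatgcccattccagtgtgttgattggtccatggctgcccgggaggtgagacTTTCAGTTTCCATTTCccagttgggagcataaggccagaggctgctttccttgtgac
Apol10b: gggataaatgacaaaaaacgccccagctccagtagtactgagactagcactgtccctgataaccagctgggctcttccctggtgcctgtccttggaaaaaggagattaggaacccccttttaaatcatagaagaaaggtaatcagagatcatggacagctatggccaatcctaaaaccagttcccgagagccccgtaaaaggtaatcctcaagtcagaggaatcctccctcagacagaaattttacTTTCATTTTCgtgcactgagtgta
Apol8: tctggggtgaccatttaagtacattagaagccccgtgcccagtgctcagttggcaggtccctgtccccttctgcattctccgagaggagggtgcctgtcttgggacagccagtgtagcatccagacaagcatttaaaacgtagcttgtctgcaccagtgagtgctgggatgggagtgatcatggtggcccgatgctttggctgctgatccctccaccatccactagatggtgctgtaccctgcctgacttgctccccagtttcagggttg
No sequence is printed for Apol6.

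The first pattern was found in the windows of Apol9a, Apol9b and Apol10b and not in that of Apol8; in the printed windows it lies on the reverse strand and so reads TTTC, any 2 bases and TTTC. Apol9a and Apol9b held 2 overlapping matches, at bases -59 to -50 and -53 to -44 from the start of Apol9a and at -37 to -28 and -31 to -22 from that of Apol9b. The position differs between the 2 genes because the annotated starts do: over the 248 bases that the 2 windows share, 248 were identical. Both genes also have a second RefSeq start further downstream, whose window is not printed. From it the Apol9a matches lie at -105 to -96 and -99 to -90. Those of Apol9b lie at -86 to -77 and -80 to -71. In Apol10b 1 match spanned the annotated start, from base -4 to base 6. No gamma-activated pattern was found in these 4 windows, which says only that the letters are not there.

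Apol genes with next to no counts held the pattern too. It was present in 5 of 7 other family members with a promoter in the table, whose stretches of 40 bases around the match are printed here. The highest count that any of the 9 other Apol entries reached in a library was 5, and 5 of the 9 were at 0 in all 12. Apol10a (chr15:77476982-77477021, plus strand), Apol11a (chr15:77508205-77508244, plus strand), Apol11b (chr15:77643311-77643350, minus strand), Apol7c (chr15:77533345-77533384, minus strand) and Apol7e (chr15:77698839-77698878, plus strand) are set beside Apol10b (chr15:77596106-77596143, minus strand), whose stretch ends with the window.
Apol10b: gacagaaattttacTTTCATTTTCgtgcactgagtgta
Apol10a: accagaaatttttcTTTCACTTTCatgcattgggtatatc
Apol11a: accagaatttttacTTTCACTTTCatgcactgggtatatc
Apol11b: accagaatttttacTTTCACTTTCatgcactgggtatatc
Apol7c: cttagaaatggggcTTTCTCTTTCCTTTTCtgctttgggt
Apol7e: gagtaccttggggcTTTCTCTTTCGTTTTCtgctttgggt
Apol10a, Apol11a and Apol11b also held the gamma-activated pattern, at bases -241 to -233.

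**Figure D1:**
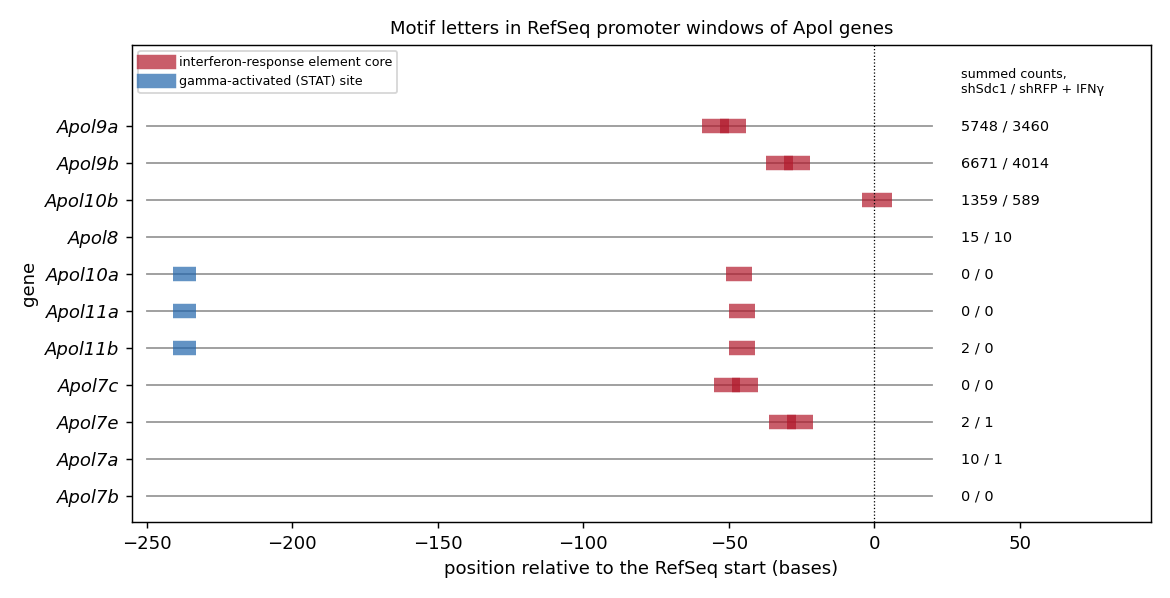
Motif letters in RefSeq promoter windows of 11 Apol genes, by position from the annotated start in bases (for Apol9a and Apol9b the upstream start). Red blocks mark the interferon-response core and blue blocks the gamma-activated pattern; the numbers at the right are counts summed over 3 libraries in shSdc1 with IFNγ and in shRFP with IFNγ, which are high for Apol9a, Apol9b and Apol10b and at most 15 for the other 8 genes.

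Apol9a (ENSMUSG00000057346) and Apol9b (ENSMUSG00000068246) had the highest CPM of the members. Apol9a had 118, 116 and 105 CPM in shSdc1 with IFNγ, against 76.1, 77.4 and 75.1 CPM in shRFP with IFNγ. Without IFNγ it had 8, 8 and 8 counts in shSdc1 (0.486 to 0.5004 CPM) and 0, 2 and 2 counts in shRFP. Apol9b had 135, 132 and 128 CPM in shSdc1 with IFNγ, against 89.2, 89.6 and 86.4 CPM in shRFP with IFNγ. Without IFNγ it had 13, 10 and 10 counts in shSdc1 (0.611 to 0.790 CPM) and 5, 3 and 3 counts in shRFP (0.178 to 0.228 CPM). For both genes the 4 groups were in the same order and no group overlapped another: knockdown with IFNγ was highest, then control with IFNγ, then knockdown without it, then control without it.

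Reads of these copies cannot be assigned with full certainty. Of the 1869 different stretches of 100 bases in Apol9b transcripts, 685 (36.7%) also occur in Apol9a transcripts, where they make up 11.7% of 5858. How such reads were counted is not stated. Apol9a made up 46.2 ± 0.936% of the 2 genes' counts in shSdc1 with IFNγ and 46.3 ± 0.232% in shRFP with IFNγ (SD, n = 3 each). Fold changes and the interaction are therefore also given for the sum of both, but levels per kilobase are not.

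Apol6 (ENSMUSG00000033576) was the next in CPM. It had 92.4, 93.97 and 88.8 CPM in shSdc1 with IFNγ, against 48.5, 40.5 and 48.5 CPM in shRFP with IFNγ. Without IFNγ it had 2 counts in shSdc1, both in replicate 3, and 0 counts in shRFP. The 2 groups with IFNγ did not overlap, and the 2 without it lay at or below the limit of 3 counts over a group. Apol6 shares 64 exon bases with Mb, the myoglobin gene on the other strand, in the annotation, and the strand setting is not known here; Mb itself had 2, 0, 1 and 0 counts in the same 4 groups.

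Apol10b (ENSMUSG00000050014) was seen only in libraries with IFNγ. It had 26.1, 26.9 and 27.8 CPM in shSdc1 with IFNγ, against 12.4, 12.9 and 13.7 CPM in shRFP with IFNγ. All 3 knockdown libraries exceeded all 3 control libraries. It had 0 counts in all 6 libraries without IFNγ, a limit of 0.0615 CPM in shSdc1 and 0.0563 CPM in shRFP.

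Apol8 (ENSMUSG00000056656) had 3, 9 and 3 counts in shSdc1 with IFNγ and 7, 3 and 0 in shRFP with IFNγ, against 3, 1 and 4 in shSdc1 and 5, 2 and 1 in shRFP. The groups overlapped in every comparison, at levels of 0.298 ± 0.204, 0.217 ± 0.233, 0.163 ± 0.0924 and 0.139 ± 0.0813 CPM in that order (SD, n = 3 each). It was removed by the filter on low counts. Fitted without that filter its adjusted p was 0.632 or more in each of the 4 comparisons between groups (edgeR, Benjamini-Hochberg). The ratio of its counts with IFNγ to those without was 1.81 in knockdown cells (95% exact interval 0.720 to 4.93) and 1.47 in control cells (0.522 to 4.28), so changes of that size were not detectable at this depth, whereas increases like those of the other 4 members lie far outside both intervals.

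**Figure D2:**
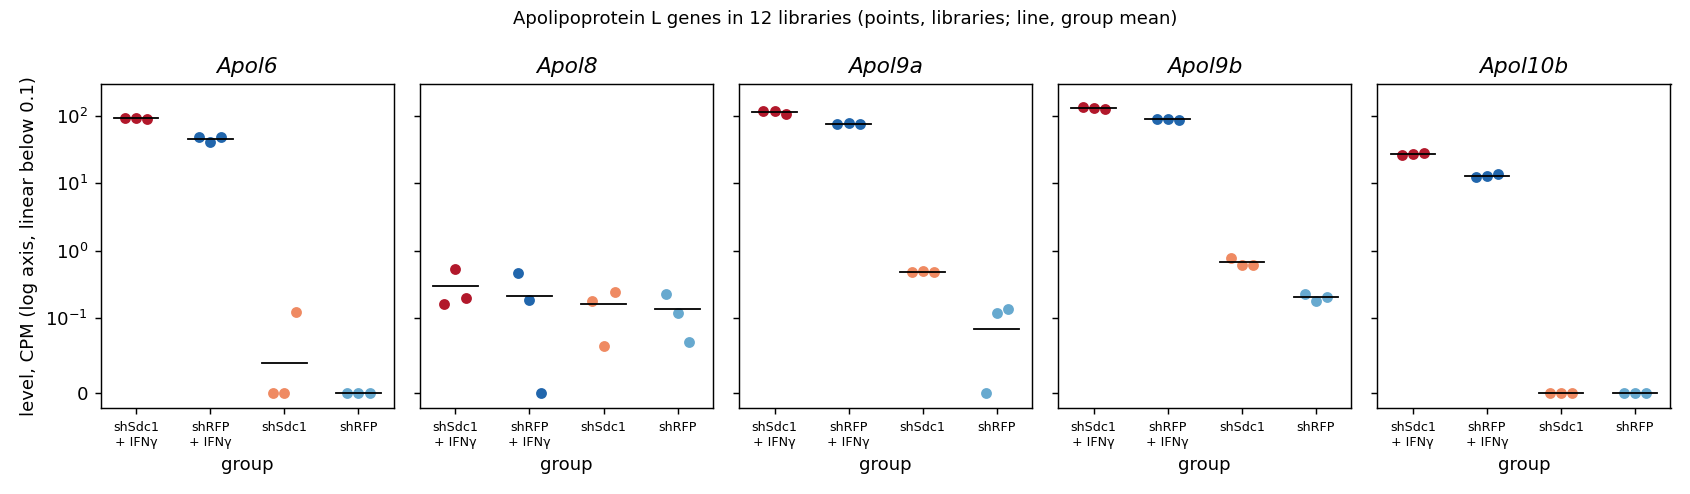
Levels of the 5 Apol genes in CPM, on a log axis that is linear below 0.1, with 1 point per library and a line at the mean of 3. Apol9a, Apol9b, Apol6 and Apol10b lie between 12.4 and 135 CPM with IFNγ, higher in shSdc1 than in shRFP, and below 1 CPM without it, while Apol8 lies below 1 CPM in every group.

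Per kilobase of annotated exon, Apol9b led the family in shSdc1 with IFNγ at 72.3 ± 1.98 CPM per kb, followed by Apol6 at 20.4 ± 0.593, Apol9a at 19.0 ± 1.15 and Apol10b at 11.6 ± 0.365 (SD, n = 3 each). In shRFP with IFNγ the order was Apol9b at 48.6 ± 0.953 CPM per kb, Apol9a at 12.8 ± 0.199, Apol6 at 10.2 ± 1.03 and Apol10b at 5.59 ± 0.296. Apol6 and Apol9a overlapped in the knockdown libraries (19.7 to 20.9 against 17.7 to 19.9) and did not in the control libraries (9.003 to 10.8 against 12.6 to 13.01). The place of Apol9a rests on an annotated exon length of 5953 bases, against 1821 for Apol9b, and the transcripts used in these cells were not measured. The places of both copies also rest on how the reads they share were counted, which is not stated.

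The comparison of IFNγ with no IFNγ asks how strongly each member responds. In control cells Apol6 was at least 811-fold and Apol10b at least 231-fold higher with IFNγ, both computed against 3 counts over the group without it. The ratio of summed counts, scaled for depth, was 1016 for Apol9a (95% exact interval 396 to 3730, from 3460 counts with IFNγ and 4 without) and 428 for Apol9b (239 to 859, from 4014 and 11). In knockdown cells Apol10b was at least 437-fold higher, and the ratio was 2242 for Apol6 (620 to 18517, from 4644 counts and 2), 231 for Apol9a (155 to 361) and 195 for Apol9b (139 to 284). For the sum of Apol9a and Apol9b the fitted log2 fold change with IFNγ was 9.15 in control cells and 7.70 in knockdown cells. Without shSdc1 replicate 3, which held both Apol6 counts, Apol6 was at least 993-fold higher against 3 counts over the other 2 libraries. These intervals and limits cover counting error only, since copies made by PCR are not independent molecules.

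All 4 measured members were past the threshold in both cell types, as were 17.2% of the 14089 genes tested in control cells and 17.5% in knockdown cells in the upward direction. All libraries with IFNγ exceeded all without it for the 4 members, as for 21.7% and 24.7% of genes. Nothing is read from these counts, because the members passed the filter on low counts only through their levels with IFNγ.

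**Figure D3:**
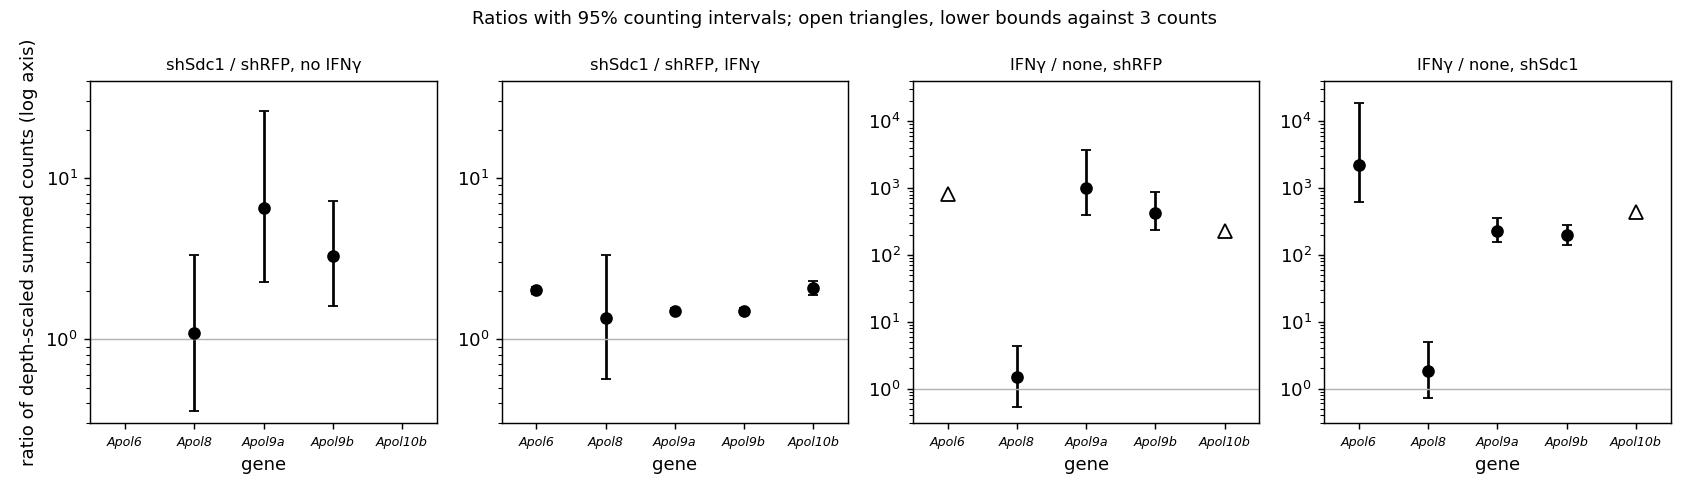
Ratios of depth-scaled summed counts for each Apol gene in 4 comparisons, on log axes, with 95% exact counting intervals; open triangles are lower bounds against 3 counts, and a gene with no more than 3 counts in both groups has no symbol. With IFNγ, Apol6 and Apol10b lie at 2.01 and 2.07 in shSdc1 over shRFP and Apol9a and Apol9b at 1.49 each.

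The comparison of knockdown with control cells under IFNγ asks whether the stimulated level differed in cells with less Sdc1 message. All 4 measured members were higher in the knockdown, as were 18.9% of all genes tested, and in all 4 every knockdown library exceeded every control library, as in 23.1% of genes. Apol6 averaged 91.7 ± 2.67 CPM in shSdc1 and 45.8 ± 4.63 CPM in shRFP (SD, n = 3 each), a log2 fold change of 1.00 ± 0.08 (SE; edgeR adjusted p = 3.1e-08). Apol10b, at 26.1 to 27.8 CPM in shSdc1 and 12.4 to 13.7 CPM in shRFP, had a log2 fold change of 1.05 ± 0.10 (edgeR adjusted p = 1.3e-06). For Apol9a, at 113 ± 6.84 CPM in shSdc1 and 76.2 ± 1.18 CPM in shRFP, it was 0.57 ± 0.06 (edgeR adjusted p = 7.7e-07). For Apol9b, at 132 ± 3.60 and 88.4 ± 1.74 CPM, it was 0.57 ± 0.05 (edgeR adjusted p = 1.1e-08), and for the sum of the pair 0.57 ± 0.04 (edgeR adjusted p = 6.7e-09). The median over the 4 was 0.79, beside 0.02 over all genes tested. The 2 copies thus shared a rise of 1.49-fold, while Apol6 and Apol10b rose by 2.00-fold and 2.07-fold.

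Within a library the ratio of members shows this difference without any scaling between libraries. Apol6 had 36.4, 37.96 and 38.0 counts per 100 counts of Apol9a and Apol9b together in shSdc1 with IFNγ, against 29.3, 24.2 and 30.05 in shRFP with IFNγ. Apol10b had 10.3, 10.9 and 11.9 counts per 100 of the same pair in shSdc1, against 7.48, 7.72 and 8.504 in shRFP. For both, every knockdown library lay above every control library. The ratio of the group means was 1.34 for Apol6 and 1.395 for Apol10b, each with p = 0.1 in a two-sided exact permutation test, the smallest that 3 libraries against 3 allow, and 0.2 adjusted over the 4 ratios compared. Apol10b per 100 Apol6 counts was 29.4 ± 1.66 in shSdc1 and 28.6 ± 3.17 in shRFP, which overlapped (exact permutation p = 0.9). This test cannot reach 0.05 with 3 libraries a group, so it does not settle whether the pair and the other 2 genes differ in fold.

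**Figure D4:**
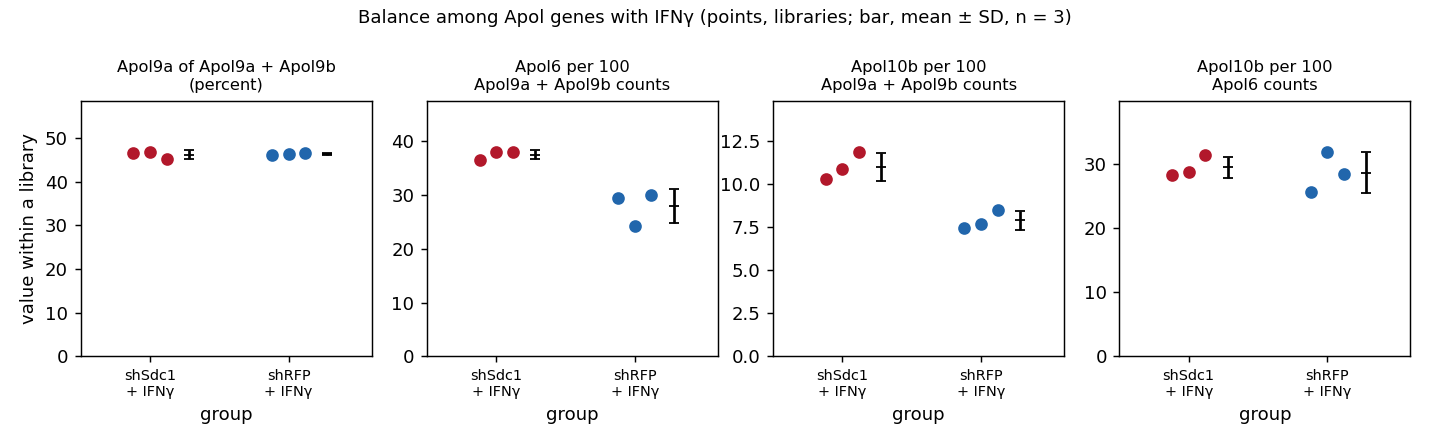
Balance among Apol genes within each library with IFNγ: the percent of Apol9a among counts of Apol9a and Apol9b, and counts of 1 gene per 100 counts of another, with 3 points per group and bars for mean ± SD. Apol6 and Apol10b are higher relative to the Apol9 pair in shSdc1 (37.5 and 11.02 per 100) than in shRFP (27.9 and 7.90 per 100), while the percent of Apol9a is 46.2 and 46.3.

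The same comparison without IFNγ could be made for Apol9a and Apol9b alone, since Apol6 had at most 2 and Apol10b 0 counts in either group. Both genes passed the low-count filter only through their levels with IFNγ, so their counts of calls here and in the interaction are descriptions. Apol9a had 24 counts over the 3 shSdc1 libraries and 4 over the 3 shRFP libraries, a fitted fold of 6.03 (log2 2.59, edgeR adjusted p = 0.00079) and a count ratio of 6.55 (95% exact interval 2.25 to 26.0). Apol9b had 33 counts in shSdc1 and 11 in shRFP, a fitted fold of 3.19 (log2 1.68, edgeR adjusted p = 0.0019) and a count ratio of 3.27 (1.61 to 7.18). Both were higher in the knockdown, as were 14.0% of all genes tested, and in both every knockdown library exceeded every control library, as in 21.4% of genes. For the sum of the pair the log2 fold change was 2.02 (edgeR adjusted p = 2.2e-06). The size for Apol9a rests on the 0 counts in shRFP replicate 1; without that library it was 3.68-fold (edgeR adjusted p = 0.023). All these levels are below 1 CPM, and no SE is given because counting error dominates there.

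The interaction asks whether the knockdown effect differed with and without IFNγ. For Apol9a the knockdown effect was smaller with IFNγ than without it, by 2.02 on the log2 scale (interaction -2.02, counting SE 0.78, edgeR adjusted p = 0.023), a direction in which 5.15% of genes passed. For Apol9b the value was -1.10 (counting SE 0.50, edgeR adjusted p = 0.10), which did not pass. For the sum of the pair the interaction was -1.45 (edgeR adjusted p = 0.0054). The edgeR p-values come from the F test of the fit and not from the counting SEs. The call for Apol9a ended with the DESeq2 Wald test (-2.15, adjusted p = 0.051). In edgeR it ended without shSdc1 replicate 1 (-2.03, adjusted p = 0.054), without shSdc1 replicate 2 (-2.01, adjusted p = 0.0503) and without shRFP replicate 1 (-1.31, adjusted p = 0.23). In CPM the gap was wider with IFNγ (113 in shSdc1 against 76.2 in shRFP) than without it (0.492 against 0.0856). For Apol6 and Apol10b no such value can be given, because control cells without IFNγ had 0 counts.

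The factors that carry the IFNγ signal were compared in the same libraries. Of 17 genes for interferon receptors, Janus kinases, STATs, interferon regulatory factors and the SOCS feedback inhibitors, 13 rose with IFNγ in control cells and 14 in knockdown cells, and 0 fell in either, beside 17.2% and 17.5% of all genes that rose (median log2 fold change 1.296 and 1.254, beside -0.01 and 0.00 over all genes). Irf8, a factor known from myeloid cells, had 1.73 ± 0.360 CPM in shRFP with IFNγ and 0 counts in shRFP. With IFNγ, 6 of the 17 were higher in the knockdown and 0 lower (median 0.15), beside 18.9% of all genes that were higher (median 0.02). Irf7, a regulator induced by type I interferon, stood at 14.7 ± 1.80 CPM in shSdc1 and 7.99 ± 0.764 CPM in shRFP (log2 0.88 ± 0.14, edgeR adjusted p = 8.3e-05). Stat2 stood at 390 ± 11.3 CPM in shSdc1 and 271 ± 12.6 CPM in shRFP (0.53 ± 0.05, edgeR adjusted p = 3.5e-07). Irf1 stood at 362 ± 13.5 CPM in shSdc1 and 380.3 ± 17.96 CPM in shRFP (-0.07 ± 0.05, edgeR adjusted p = 0.35), which was not shown to differ. No test bears on whether any of the 17 acts on the Apol genes.

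Without IFNγ, 4 of the 17 were higher in the knockdown and 2 lower (median 0.13), beside 14.0% of all genes that were higher (median 0.00). Irf1 stood at 16.1 ± 0.709 CPM in shSdc1 and 11.6 ± 1.53 CPM in shRFP (0.48 ± 0.08, edgeR adjusted p = 0.00016). Whether this level bears on the few Apol9a and Apol9b counts in resting cells was not tested.

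Genes were ranked by how close their profile over the 12 libraries was to that of a member, as the root mean square difference of log2(CPM + 0.5), each gene centred on its own mean. For Apol9a and Apol9b the nearest were Cd74, the invariant chain of MHC class II, at 0.242 and 0.194, and Tap1, a subunit of the peptide transporter of MHC class I, at 0.253 and 0.238. Apol9a and Apol9b themselves differed by 0.113. Apol6 differed from Apol9a by 0.309 and from Apol9b by 0.302. Apol10b lay farther off, at 0.862 from Apol6, 0.901 from Apol9a and 0.875 from Apol9b. For Apol6 the nearest were Gbp10, a guanylate-binding protein, at 0.197 and Oasl2, a relative of the oligoadenylate synthetases, at 0.228, ahead of Cd74 (0.290) and Tap1 (0.304). For Apol10b they were Ifit3, an antiviral protein, at 0.155 and the serpin gene Serpina3f at 0.174, then Oas2 (0.289) and Uba7, the activating enzyme for ISG15 (0.296). The median over the 11009 genes compared was 2.66 for Apol10b and 3.47 to 3.51 for the others. Serpina3f had 35.4 ± 1.06 CPM in shSdc1 with IFNγ and 13.1 ± 1.28 CPM in shRFP with IFNγ, and, like Apol10b, 0 counts in the 6 libraries without it. The nearness of Apol10b to Ifit3, which had 5.45 ± 0.320 CPM in shSdc1 and 4.49 ± 0.0880 CPM in shRFP without IFNγ, depends on the 0.5 added before the logarithm, which sets how low a count of 0 lies. The 0.5 can weigh on the other distances too, since every member lay below 1 CPM without IFNγ. Tap1 averaged 2.68 CPM in shRFP and 363 CPM in shRFP with IFNγ, where Apol9a averaged 0.0856 and 76.2 CPM.

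**Figure D5:**
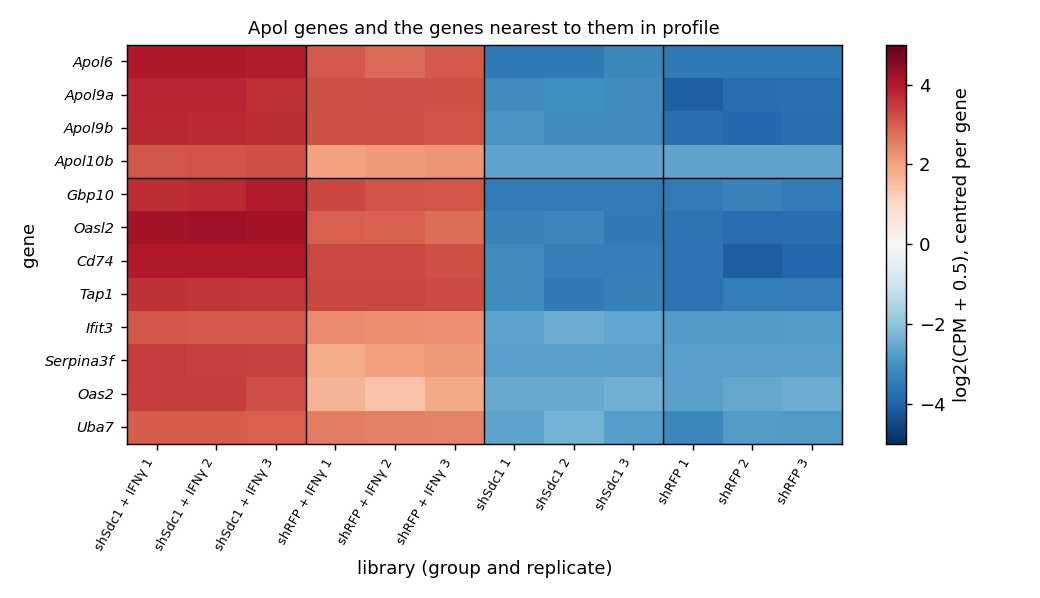
Centred log2(CPM + 0.5) of the 4 measured Apol genes (above the line) and the 8 genes nearest to them in profile, in each of the 12 libraries, with red high and blue low. All 12 genes are higher in the 6 libraries with IFNγ than in the 6 without it, and higher in shSdc1 with IFNγ than in shRFP with IFNγ.

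The Apol genes lie together on chromosome 15 in the annotation, except for the entry Apol7d on chromosome 1, which overlaps Fn1 on the other strand. Of 8 tested genes next to or among them, 4 were higher with IFNγ in control cells and 3 in knockdown cells. Over all genes tested, 17.2% and 17.5% were higher. The log2 fold changes of the 8 were at most 0.74 in either. The highest was 1110038F14Rik, before Apol6, at 0.74 ± 0.07 in both. Rbfox2, a splicing factor gene between Apol6 and the rest, changed by 0.30 ± 0.05 with IFNγ in control cells and Myh9, a nonmuscle myosin gene after Apol8, by 0.14 ± 0.04. With IFNγ, 3 of the 8 were higher in the knockdown and 2 lower, from -0.22 for Txn2 to 0.97 for Foxred2. In that comparison 18.9% of all genes tested were higher. The 8 neighbours showed log2 changes with IFNγ of under 1. Nothing is read from setting them beside the 4 measured Apol genes, which were chosen with their levels known. Apol entries were not counted among the 8. Of those, Apol8 had 10 counts in control cells with IFNγ and 8 without it, and 5 others were at 0 in all libraries.

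Other Apol entries gave at most 11 counts over all libraries, reached by Apol7a and Apol7d. Apol7d had 4 counts in shSdc1 with IFNγ, 4 in shRFP with IFNγ, 1 in shSdc1 and 2 in shRFP. Apol7a had 4, 1 and 5 counts in shSdc1 with IFNγ against 1, 0 and 0 in shRFP with IFNγ, and 0 in the 6 libraries without IFNγ. The count ratio between knockdown and control cells with IFNγ was 8.97 (95% exact interval 1.28 to 389), and the groups overlapped. Fitted without the filter on low counts its adjusted p was 0.23 (edgeR), so a difference was not detectable at this depth.

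Apolipoproteins of other families, which carry lipids in plasma and are not related to the L family by sequence, served as a contrast by name. Only 4 of 16 passed the filter. With IFNγ 2 were higher in the knockdown and 1 lower (median 1.21), beside 18.9% of all genes tested that were higher. IFNγ itself raised 1 and lowered 1 in control cells and raised 2 in knockdown cells. Over all genes tested, 17.2% and 17.5% rose with IFNγ in control and knockdown cells. Apod had 5.45 ± 0.637 CPM in shSdc1 with IFNγ against 0.697 ± 0.250 CPM in shSdc1 (log2 2.95 ± 0.33, edgeR adjusted p = 1.0e-06), and 1.62 ± 0.341 CPM in shRFP with IFNγ against 0.302 ± 0.301 CPM in shRFP (2.26 ± 0.44, edgeR adjusted p = 0.00064). Apoe had 613 ± 28.1 CPM in shSdc1 and 804 ± 29.0 CPM in shRFP without IFNγ (-0.39 ± 0.06, edgeR adjusted p = 9.4e-05). Clu, also known as apolipoprotein J, was the member of that list with the largest knockdown change. It had 6.13 ± 0.499 CPM in shSdc1 with IFNγ against 1.34 ± 0.319 CPM in shRFP with IFNγ (log2 2.18 ± 0.20, edgeR adjusted p = 1.0e-07). Without IFNγ it had 3.62 ± 0.289 CPM in shSdc1 against 0.999 ± 0.208 CPM in shRFP (log2 1.88 ± 0.22, edgeR adjusted p = 2.8e-06).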

How the data were processed

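RNA-seq was measured in 12 libraries of B16 cells. The values the authors deposited are unnormalized counts of reads for each gene. Per the submitters' processing notes Trimmomatic, HISAT2 2.0.5, HTSeq and GRCm39 were used, with no settings given. No source used here states the annotation, the strand setting or the treatment of reads with several matches. GENCODE M21 supplied symbols, which matched 52083 of 56093 entries; exon lengths and gene order came from the same release (GRCm38). The members and gene lists were chosen with earlier results of these data known.

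Counts were scaled by TMM and filtered by filterByExpr (minimum count 10, minimum total 15), which kept 14089 genes, 4 of the 14 Apol entries among them. The 12 libraries entered a single edgeR 4.0.16 quasi-likelihood fit under R 4.3.3, each group having its own coefficient (8 residual degrees of freedom), and p-values, two-sided, were adjusted by the Benjamini-Hochberg method over all genes at 0.05. The SE is the log2 fold change over the square root of F. Where a group had 0 counts the fold is a bound against 3 counts over the group; with few counts the ratio of summed counts carries a 95% exact (Clopper-Pearson) interval.

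Genes were named by a rule: the members, other Apol entries, the 4 nearest in profile of each measured member among genes with a mean of at least 1 CPM and an official symbol, the 3 tested genes on either side of the cluster and any between, and the 2 largest changes per list; Sdc1 checked the labels. Irf1 in the knockdown comparison with IFNγ falls outside the rule and was named after its values were seen. A gene that the rule names is not reported here. Alternatives were DESeq2 size factors, the DESeq2 1.42.0 Wald test, no filter, the compared groups alone, a replicate block, Apol9a and Apol9b summed, ENSMUSG00000119584 left out, and each library left out. Only the knockdown comparison with IFNγ was tried on simulated counts, with changes set in genes above 1 CPM. The other comparisons, the interaction and the count intervals were not tried. Other values used Python 3.11.15, numpy 2.4.6, scipy 1.17.1 and pandas 2.3.3, and figures matplotlib 3.10.9.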

Additional observations from a re-analysis of the deposited data

Results flagged for a closer look

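A difference in the knockdown effect on Apol9a between cells with and without IFNγ passed the threshold in edgeR: the interaction was -2.02 on the log2 scale (edgeR adjusted p = 0.023). The call was lost with the DESeq2 Wald test (adjusted p = 0.051) and when either shSdc1 replicate 1, shSdc1 replicate 2 or shRFP replicate 1 was left out; without shRFP replicate 1 the value was -1.31 (edgeR adjusted p = 0.23). The close copy Apol9b did not pass (-1.10, edgeR adjusted p = 0.10). The Apol9a value rests on 24 counts in shSdc1 and 4 in shRFP without IFNγ, and with those few counts the counting SE alone was 0.78. The edgeR p comes from the F test of the fit and not from this SE, against which -2.02 is a weaker result. Apol9a passed the low-count filter only through its levels with IFNγ.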

How the results depend on the processing

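The knockdown fold changes of Apol6, Apol9a, Apol9b and Apol10b with IFNγ, and of Apol9a and Apol9b without it, kept their direction and their side of the threshold under every alternative that gave them a value. Apol8 had a value only in the fit without the filter. With IFNγ, the knockdown log2 fold change ranged from 0.91 to 1.04 for Apol6, 1.01 to 1.08 for Apol10b, 0.53 to 0.62 for Apol9a and 0.55 to 0.59 for Apol9b. In the fit of the compared groups alone without IFNγ, Apol9a and Apol9b fell below the filter on low counts and no value was had. The interaction was the exception. For Apol9a it was -2.15 with the DESeq2 Wald test, which left 0 Apol genes past the threshold. Leaving out 1 library gave -2.51 to -1.31 and 0 to 1 genes past it. Over the alternatives that kept Apol9a apart from Apol9b, its adjusted p (edgeR or DESeq2) ranged from 0.020 to 0.23. For the 2 genes summed the interaction was -1.45 (edgeR adjusted p = 0.0054). Over all genes 1371 passed in the interaction, and 789 to 1999 when 1 library was left out. The interaction of Apol9b ranged from -1.21 to -0.98 and did not pass. The cause of the lost calls was not tested. Same-numbered libraries did not deviate together (r from -0.07 to 0.03 over 18 pairs), so the numbers give no pairing; with a replicate block the interaction of Apol9a was -2.03 and the counts of Apol genes past the threshold were 2, 4, 4, 4 and 1, as without it. Depth limits Apol8, Apol7a and every value without IFNγ.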
